A study of Homo sapiens with 42 samples.

Results

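Plexins are the single-pass membrane receptors of the semaphorins, guidance cues that steer axons, vessels and migrating cells. Ligand binding activates a GTPase-activating domain inside the cell that switches off small Rap and Ras proteins, and the cytoskeleton and integrin adhesion change as a result. Class A plexins bind most secreted class 3 semaphorins through a neuropilin co-receptor, class B plexins bind class 4 semaphorins directly, PLXNC1 binds SEMA7A and PLXND1 binds SEMA3E. In carcinoma cells several of these receptors are known as regulators of invasion, often together with the receptor tyrosine kinases MET and ERBB2.

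The 9 human plexin genes (PLXNA1, PLXNA2, PLXNA3, PLXNA4, PLXNB1, PLXNB2, PLXNB3, PLXNC1 and PLXND1) of 20033 protein-coding genes were examined at every annotated transcription start site (TSS) and along the gene body. They were chosen as a family from measured values, the peak and island calls of these same libraries, so their calls in both cell lines are given as description, without a test. The data are 42 chromatin immunoprecipitation (ChIP-seq) libraries, 4 of them inputs, from 2 human lung carcinoma lines. Parental NCI-H661 cells, a large cell carcinoma line that expresses the embryonic factors DPPA2 and DPPA4, gave 18 libraries: DPPA2 and DPPA4 (2 each), KDM2A and SUZ12 (1 each) and the marks H3K27ac, H3K4me1, H3K36me2, H3K36me3, H3K9me3 and H2AK119ub (2 each). NCI-H1299 cells, which lack both factors, carried doxycycline-inducible FLAG-DPPA2 and V5-DPPA4 and gave 20 libraries: for each of these marks but H3K36me2, 2 libraries from cells given 2 µg/mL doxycycline for 7 days (DOX) and 2 from the same engineered cells given water for 7 days (control). All H1299 cells therefore carry the transgenes, and each result rests on 1 engineered line. Nothing in the labels says that the replicates came from separate cultures, so their spread may be technical.

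DPPA2 and DPPA4 form a heterodimer that binds CpG-rich promoters and is known in mouse embryonic stem cells for keeping developmental promoters poised. H2AK119ub is laid down by Polycomb repressive complex 1, and SUZ12 is a core subunit of Polycomb repressive complex 2. H3K27ac marks active promoters and enhancers, H3K4me1 marks enhancers and the flanks of promoters, H3K36me3 lies along transcribed gene bodies and H3K9me3 marks constitutive heterochromatin. A call at a gene means a listed peak or island, with a log2 fold over input above 1 and a false discovery rate below 0.05, within 1500 bp of the same TSS in every library of the group. A DPPA2/4 consensus peak is the union of MACS2 peaks that overlap, by over 25% of each, in both DPPA2 and both DPPA4 lists. Islands are the broad enriched stretches that EPIC2 reports with a read count. A library without an island has no listed count at that place, which is not a measured 0.

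The sequences under the peak summits are shown because DPPA2 and Polycomb proteins are both known for binding CG-rich DNA. The 5 members with a consensus peak at a TSS are represented by the 150 bases around the DPPA2 replicate 1 summit of their strongest such peak, and 3 members without one by the 150 bases around their strongest SUZ12 summit. All are read from hg38 in the direction of transcription, with each CG dinucleotide in capitals.
PLXNA1 (chr3:126983362-126983511, plus strand): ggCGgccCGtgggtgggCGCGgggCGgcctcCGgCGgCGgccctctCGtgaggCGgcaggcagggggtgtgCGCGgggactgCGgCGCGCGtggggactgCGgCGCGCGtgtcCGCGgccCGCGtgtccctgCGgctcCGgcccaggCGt
PLXNB1 (chr3:48429197-48429346, minus strand): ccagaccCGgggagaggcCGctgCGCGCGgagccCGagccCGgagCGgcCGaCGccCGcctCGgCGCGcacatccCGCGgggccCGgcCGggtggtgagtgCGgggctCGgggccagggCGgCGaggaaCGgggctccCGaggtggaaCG
PLXNB2 (chr22:50300023-50300172, minus strand): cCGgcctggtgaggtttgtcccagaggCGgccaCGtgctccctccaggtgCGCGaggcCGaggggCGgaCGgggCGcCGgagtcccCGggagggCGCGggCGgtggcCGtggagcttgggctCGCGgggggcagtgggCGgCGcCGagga
PLXNB3 (chrX:153774446-153774595, plus strand): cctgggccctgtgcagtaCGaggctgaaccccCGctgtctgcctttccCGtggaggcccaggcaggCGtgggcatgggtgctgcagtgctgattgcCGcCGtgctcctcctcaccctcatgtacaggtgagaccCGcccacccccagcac
PLXND1 (chr3:129606461-129606610, minus strand): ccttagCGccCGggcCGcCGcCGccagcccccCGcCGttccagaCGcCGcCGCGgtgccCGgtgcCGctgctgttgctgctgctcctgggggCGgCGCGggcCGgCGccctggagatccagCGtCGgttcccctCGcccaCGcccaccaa
PLXNA2 (chr1:208243479-208243628, minus strand): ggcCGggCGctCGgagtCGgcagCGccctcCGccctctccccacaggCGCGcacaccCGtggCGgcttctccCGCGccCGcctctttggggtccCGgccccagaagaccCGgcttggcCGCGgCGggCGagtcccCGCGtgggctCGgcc
PLXNA4 (chr7:132576495-132576644, minus strand): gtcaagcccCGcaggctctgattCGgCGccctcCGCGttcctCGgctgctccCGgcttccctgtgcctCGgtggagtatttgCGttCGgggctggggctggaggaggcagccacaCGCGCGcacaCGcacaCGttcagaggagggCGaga
PLXNC1 (chr12:94149734-94149883, plus strand): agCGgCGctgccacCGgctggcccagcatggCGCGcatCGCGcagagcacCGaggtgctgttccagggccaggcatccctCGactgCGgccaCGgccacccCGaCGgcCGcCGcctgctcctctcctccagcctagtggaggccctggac
The PLXNA1, PLXNB1, PLXNB2 and PLXND1 windows held 27, 25, 20 and 22 CG dinucleotides. The PLXNB3 window held 7, and its peak lies over exons 18 to 24 of the canonical transcript and not at its first exon. The SUZ12 summits of PLXNA2, PLXNA4 and PLXNC1 held 22, 16 and 15, within the range of the DPPA2 windows.

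DPPA2/4 consensus peaks lay at a TSS of 5 of the 9 plexins, PLXNA1, PLXNB1, PLXNB2, PLXNB3 and PLXND1, where 29.5% of all protein-coding genes had one. All 3 class B receptors were among them. PLXNA2, PLXNA3, PLXNA4 and PLXNC1 had none and are called unbound by this rule. The members have 4 to 18 annotated TSSs against a median of 5 over all genes, which gives the longer lists more windows to hit. With the canonical TSS alone, 4 members kept a consensus peak (PLXNA1, PLXNB1, PLXNB2 and PLXND1) and 26.3% of all genes had one.

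**Figure D1:**
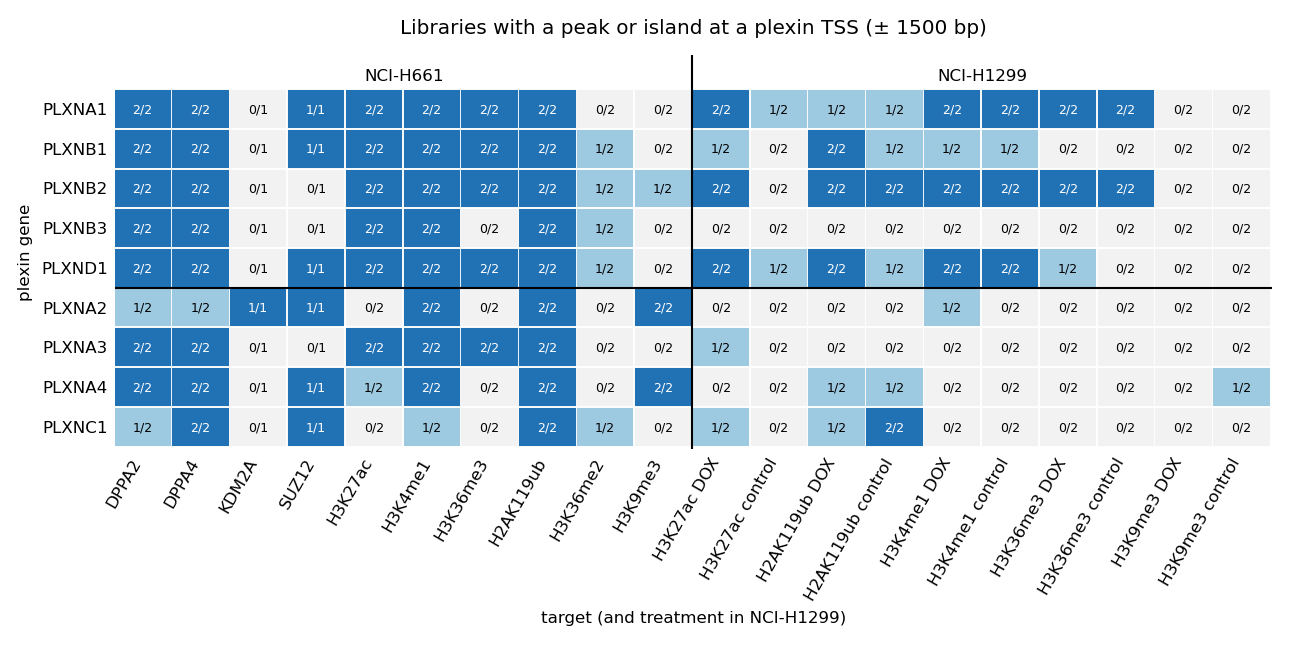
Rows are the 9 plexin genes, the 5 with a DPPA2/4 consensus peak at a TSS above the line, and columns are targets, with DOX left of control in NCI-H1299. Each square gives how many of the libraries had a peak (first 4 columns) or an island within 1500 bp of any TSS of the gene, in dark blue where all had one. PLXNA1, PLXNB2 and PLXND1 are the only rows with H3K27ac islands in both DOX libraries.

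PLXNB2, a receptor for SEMA4C on chromosome 22 (50274979 to 50307646, minus strand), carried the strongest peak. The peak at 50297789 to 50302156 had MACS2 fold enrichments of 34.3 and 14.4 in the DPPA2 libraries and 13.7 and 18.1 in the DPPA4 libraries, against medians over all consensus peaks of 10.2 and 6.27 and of 6.25 and 5.93. It ranked at percentile 98.6 of the 8825 consensus peaks by the mean of its 4 fold ranks. It lies in intron 1 of the canonical transcript, 5490 to 9857 bp downstream of the canonical TSS, and covers another annotated TSS at 50301462 and the RefSeq promoter, whose start is 5977 bp from the canonical one. Another 7 consensus peaks lay along the same gene, 5 of them in TSS windows, at percentiles 7.80 to 90.9. The peak on the canonical TSS itself (50306607 to 50307663, exon 1) was weaker. DPPA2 was enriched 12.4- and 6.99-fold there, and DPPA4 6.16- and 4.84-fold. No other plexin had more than 1 consensus peak.

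**Figure D2:**
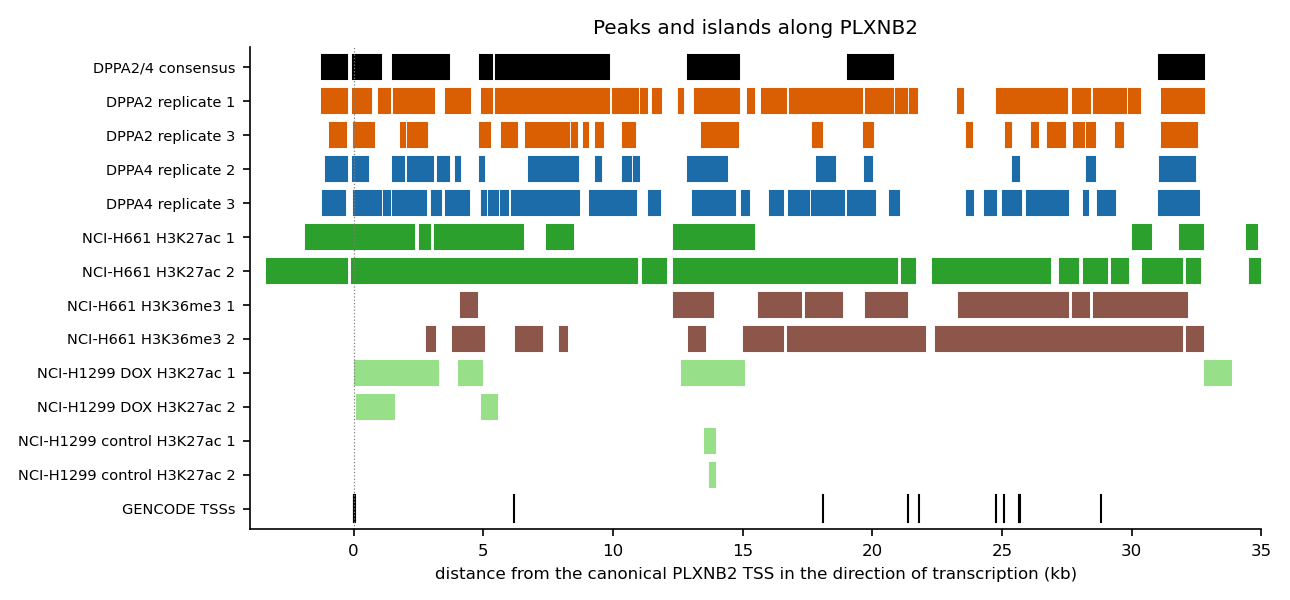
Peaks and islands along PLXNB2, with distance from the canonical TSS in kb on the x axis and 1 library per row. Black bars are the consensus peaks, coloured bars the MACS2 peaks of each DPPA2 and DPPA4 library and the EPIC2 islands of the histone marks, and ticks the annotated TSSs. The widest consensus peak runs 5490 to 9857 bp downstream of the canonical TSS, over an internal TSS, and H3K27ac islands at the canonical TSS appear in the 2 DOX and in neither control library of NCI-H1299.

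PLXND1, the SEMA3E receptor on chromosome 3 (129555214 to 129606676, minus strand), had 1 consensus peak of 3024 bp over exon 1 and the canonical TSS (129604438 to 129607461). DPPA2 was enriched 22.2- and 8.19-fold and DPPA4 10.6- and 7.80-fold. PLXNB1, a SEMA4D receptor on chromosome 3 (48403854 to 48430086, minus strand), had a 2259-bp peak over exon 1 (48428334 to 48430592), where DPPA2 was enriched 19.0- and 8.37-fold and DPPA4 11.9- and 7.21-fold. Both peaks ranked high among all consensus peaks, PLXND1 at percentile 89.0 and PLXNB1 at percentile 87.9. PLXNA1, a neuropilin partner on chromosome 3 (126982693 to 127037389, plus strand), had a 1679-bp exon 1 peak (126983060 to 126984738) at percentile 63.4, with DPPA2 enriched 14.4- and 7.67-fold and DPPA4 4.73- and 7.26-fold. PLXNB3, a SEMA5A receptor on chromosome X (153764196 to 153779346, plus strand), had its peak 9088 to 10830 bp into the gene (153773337 to 153775079), over an internal TSS, where DPPA2 was enriched 12.5- and 5.18-fold and DPPA4 10.2- and 6.89-fold (percentile 68.9).

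The PLXNB3 call was the only 1 of the 5 lost when peaks had to share 50% of their length or when only the canonical TSS was used. Over all genes the share with a consensus peak was then 14.0% and 26.3%, against 29.5% by the main rule. In all 9 members DPPA2 replicate 1 gave the highest fold of the 4 libraries. That library held 69810 peaks above a 2-fold enrichment, against 26349 to 30497 in the other 3 DPPA2 and DPPA4 libraries.

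**Figure D3:**
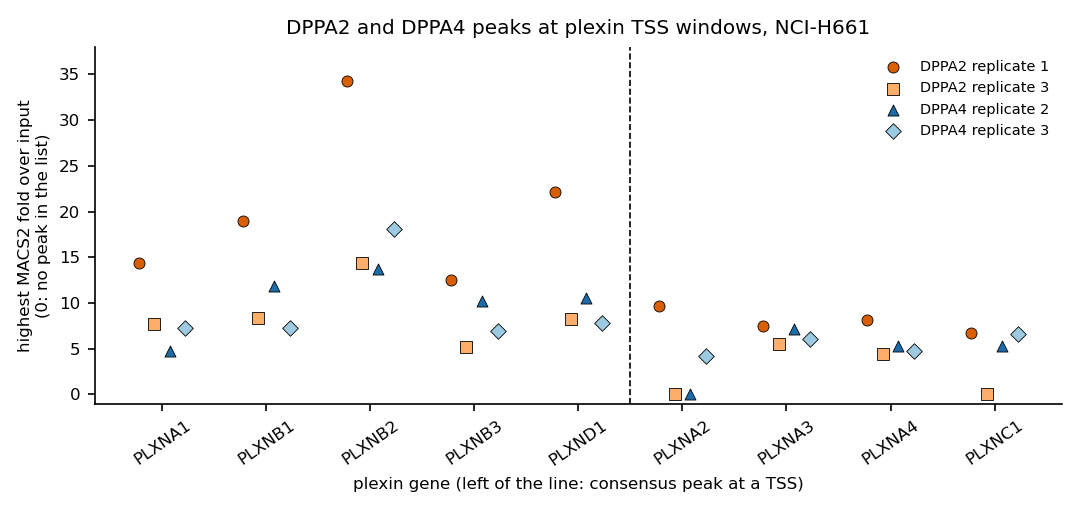
Highest MACS2 fold over input within 1500 bp of any TSS, 1 point per library for each plexin, with 0 where the list held no peak. Genes left of the dashed line had a consensus peak. PLXNB2 is highest in all 4 libraries, and PLXNA2 and PLXNC1 lack a peak in DPPA2 replicate 3.

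The 4 members without a consensus peak were not free of DPPA2 or DPPA4 peaks. PLXNA4 (chromosome 7, 132123340 to 132648688, minus strand), a receptor for SEMA6A and, with neuropilin, SEMA3A, had a peak at the canonical TSS in all 4 libraries, with DPPA2 enriched up to 8.12- and 4.37-fold and DPPA4 up to 5.24- and 4.75-fold. The DPPA2 replicate 1 peak there was 1137 bp long and those of the other libraries 155 to 258 bp, so the overlap rule was not met. With any overlap of at least 1 base, an alternative chosen after seeing the data, PLXNA4 joined the list. The list then held 6 members and 34.3% of all genes. Without DPPA2 replicate 1 the list also held 6, with PLXNA4 (30.7% of all genes). Without DPPA2 replicate 3 it held 7, with PLXNA3 and PLXNC1 (33.9% of all genes). PLXNA3 (chromosome X, 154458281 to 154477779, plus strand), another neuropilin partner, also had peaks at a TSS in all 4 libraries, with highest folds of 7.47, 5.55, 7.14 and 6.02, but no position was shared by all 4. PLXNC1 (chromosome 12, 94148577 to 94307675, plus strand) lacked a peak in DPPA2 replicate 3. PLXNA2 (chromosome 1, 208022242 to 208244384, minus strand), which binds SEMA6A and SEMA3A, lacked one in DPPA2 replicate 3 and in DPPA4 replicate 2. Highest folds in the other libraries were 4.14 to 9.68 for PLXNA2 and 5.24 to 6.76 for PLXNC1. In DPPA2 replicate 1 the highest folds were 12.5 to 34.3 at the 5 bound members and 6.76 to 9.68 at the other 4. These ranges did not overlap, a split that the rule itself favours. In DPPA2 replicate 3 PLXNB3 (5.18) lay below PLXNA3 (5.55), and in DPPA4 replicate 2 PLXNA1 (4.73) lay below PLXNA3 (7.14), so the groups overlapped. In DPPA4 replicate 3 they did not, with PLXNB3 (6.89) lowest of the bound and PLXNC1 (6.64) highest of the others.

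EPIC2 islands of the same DPPA2 and DPPA4 libraries divided the family differently. Reciprocally overlapping islands lay at a TSS of 8 members, all but PLXNB3, and of 51.0% of all genes. The 8 included PLXNA2, PLXNA3, PLXNA4 and PLXNC1, which the MACS2 consensus left out. At PLXNB3 islands ran over 88.1% to 100% of the gene body, with 2182 reads in islands at its canonical TSS in DPPA4 replicate 3. The split into members with and without a consensus peak therefore belongs to the MACS2 peaks at this overlap.

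CG content at the promoters overlapped between the bound and unbound members. In the 300-base RefSeq promoter windows around the start (GRCh38.p14, matched for 9 of 9 members) the bound members PLXNA1, PLXND1, PLXNB3, PLXNB2 and PLXNB1 had 54, 52, 15, 14 and 7 CG dinucleotides. The unbound members PLXNA3, PLXNA4, PLXNA2 and PLXNC1 had 51, 30, 29 and 20. The median over 35116 promoters was 14. The PLXNB3 window lies at the canonical TSS, while its consensus peak begins 9088 bp downstream. The PLXNB2 window surrounds a start 5977 bp from the canonical TSS, inside its strongest consensus peak. Within the consensus peaks at TSSs, CG density was highest for PLXNA1 (11.4 CG dinucleotides per 100 bases, percentile 91.1 of all consensus peaks) and PLXND1 (10.3, percentile 83.1). It was 7.39 for PLXNB1, 5.74 for PLXNB3 and 5.27 for the strongest PLXNB2 peak, against a median of 7.50 over all consensus peaks. The other PLXNB2 peaks at TSSs ranged between 1.99 and 9.56, the highest being the peak on the canonical TSS (percentile 76.4).

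SUZ12 in NCI-H661 had its largest islands at 3 of the unbound plexins. SUZ12 peaks lay at a TSS of 6 members, PLXNA1, PLXNA2, PLXNA4, PLXNB1, PLXNC1 and PLXND1, and of 17.3% of all genes. At the canonical TSS the SUZ12 islands held 104 reads at PLXNB1, 68 at PLXND1 and 42 at PLXNA1 among the bound members, against 1276 at PLXNA4, 667 at PLXNC1 and 588 at PLXNA2 among the unbound. PLXNB2, PLXNB3 and PLXNA3 had no SUZ12 island there. SUZ12 islands ran over 65.6% of the 525.3-kb PLXNA4 gene, with 166 MACS2 peaks in it, over 47.0% of the 222.1-kb PLXNA2 gene, with 27 peaks, and over 9.13% of PLXNC1. By gene-body cover PLXNA4 ranked at percentile 97.7 of all genes and PLXNA2 at percentile 96.4. SUZ12 was profiled in 1 library, so these values have no replicate check.

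H2AK119ub was called at a TSS of 9 of 9 members in NCI-H661, where 28.3% of all genes were called. Within 500 bp of a TSS it was called at 7 members (23.9% of all genes), without PLXNA1 and PLXND1. At a log2 fold over input above 2 it was called at 6 (15.8% of all genes), without PLXNA2, PLXNA3 and PLXNB2. Islands at the canonical TSS held 40 and 253 reads (replicates 1 and 2) at PLXNA1, 43 and 212 at PLXNB1, 20 and 302 at PLXNB2, 24 and 199 at PLXNB3 and 15 and 271 at PLXND1. The unbound members had 219 and 603 reads at PLXNA4, 122 and 367 at PLXNA2, 130 and 357 at PLXNC1 and 15 and 153 at PLXNA3. By these reads, PLXNA4, PLXNA2 and PLXNC1, the members with the largest SUZ12 islands, were highest in both libraries. The reads are summed over whole islands. By within-library percentile of reads per kb of TSS windows, PLXNA4 and PLXNA2 were again highest in both. PLXNC1 ranked at 82.5 in replicate 1 but at 75.5 in replicate 2, the lowest of the 9 members, with bound PLXNB3 at 90.7. Replicate 2 had more reads at every member, and it listed 110357 islands in all against 44537 in replicate 1. In replicate 1 the gene bodies of PLXNA4 (22.9%) and PLXNA2 (21.5%) were covered most and that of PLXND1 (0.777%) least. In replicate 2 PLXNB3 (78.5%) and PLXNA1 (58.0%) were covered most. PLXNC1 was covered for 1.65% and 3.22% of its body, the least of all members in replicate 2, so high H2AK119ub reads at its TSS did not go with wide gene-body cover.

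**Figure D4:**
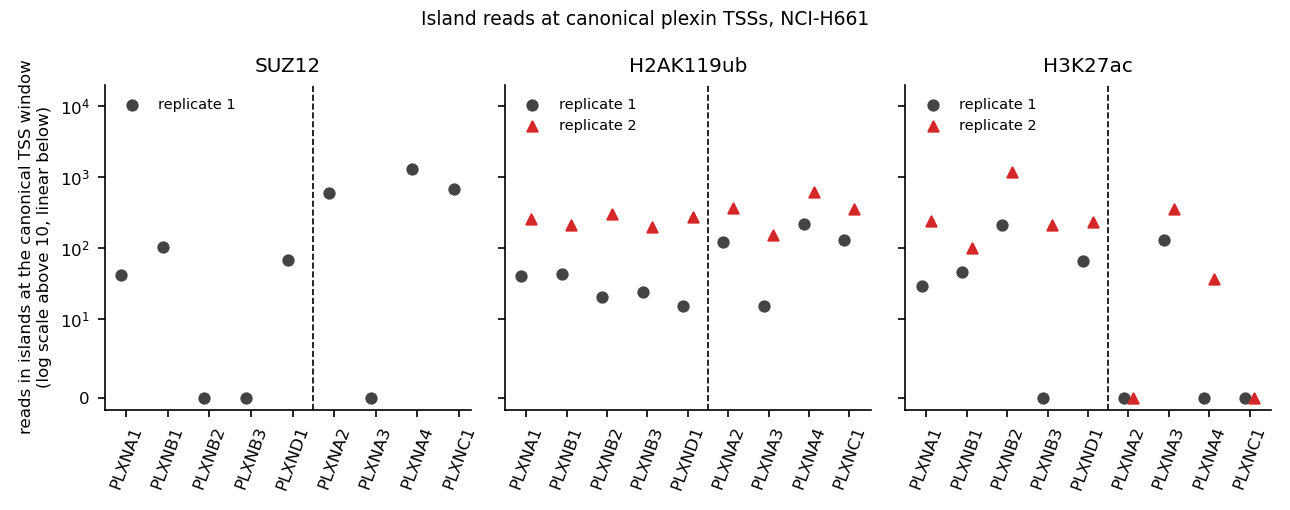
Reads in EPIC2 islands overlapping 1500 bp either side of the canonical TSS in NCI-H661, on an axis that is logarithmic above 10 reads and linear below, for SUZ12 (1 library), H2AK119ub and H3K27ac (2 libraries each). Genes left of the dashed line had a consensus peak, and points at 0 had no island. PLXNA2, PLXNA4 and PLXNC1 are highest for SUZ12 and H2AK119ub, and for H3K27ac they have no island in replicate 1 and at most 36 reads in replicate 2.

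H3K27ac was called at a TSS of 6 members in NCI-H661, the 5 bound plexins and PLXNA3, where 61.3% of all genes were called. Islands at the canonical TSS held 210 and 1171 reads (replicates 1 and 2) at PLXNB2, 66 and 233 at PLXND1, 29 and 241 at PLXNA1 and 45 and 99 at PLXNB1. PLXNA3 had 127 and 347 reads. PLXNB3 had no island at its canonical TSS in replicate 1 and 209 reads there in replicate 2, and its call came from internal TSSs. PLXNA2 and PLXNC1 had no island in either library, and PLXNA4 had 36 reads in replicate 2 only. Gene bodies in replicate 2 were covered for 90.8% at PLXNB2, 85.1% at PLXND1, 82.5% at PLXNB3 and 74.4% at PLXNA1, and in replicate 1 for 39.4% at PLXND1, 9.54% at PLXNB3 and 5.87% at PLXNA1. Replicate 2 held 98200 H3K27ac islands in all, against 64217 in replicate 1.

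The remaining marks in NCI-H661 followed the same division in part. H3K36me3 was called at a TSS of 5 members (PLXNA1, PLXNA3, PLXNB1, PLXNB2 and PLXND1; 31.8% of all genes), all at internal start sites. Its islands covered 76.9% and 71.3% of the PLXNA3 body, 47.6% and 65.1% of PLXND1, 46.2% and 61.9% of PLXNB2 and 23.8% and 68.0% of PLXNA1. Coverage was 1.53% and 4.96% at PLXNB1, and no island lay in PLXNA2, PLXNA4 or PLXNB3. PLXNB3 thus had DPPA2/4 and H3K27ac without H3K36me3 in either library.

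H3K9me3 was called at 2 members, PLXNA2 and PLXNA4 (7.29% of all genes), away from their canonical TSSs. It covered 11.7% and 28.6% of the PLXNA4 body and 4.73% and 6.98% of PLXNA2. PLXNA4 and PLXNA2 were also the members with the widest SUZ12 cover. H3K4me1 was called at 8 members, all but PLXNC1 (37.0% of all genes), and H3K36me2 at 0 (9.58% of all genes). H3K36me2 islands covered 75.9% of the PLXNB3 body and 63.0% of PLXNB1 in replicate 2 and none of either gene in replicate 1. The CpG-binding demethylase KDM2A had a MACS2 peak at PLXNA2 alone (11.7% of all genes), with a fold of 6.36. EPIC2 nevertheless listed small KDM2A islands of 9 to 57 reads at the canonical TSS of 8 members. KDM2A was profiled in 1 library with 3093 MACS2 peaks in all, so its calls have no replicate check.

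In NCI-H1299 the DOX and control libraries address whether adding DPPA2 and DPPA4 alters these marks. No doxycycline-treated cells without the transgenes are among the samples, so an effect of doxycycline itself and one of DPPA2 and DPPA4 cannot be told apart. H3K27ac was called at a TSS of 3 members in DOX (PLXNA1, PLXNB2 and PLXND1; 54.1% of all genes) and of 0 in control cells (41.4% of all genes). All 3 had a DPPA2/4 consensus peak in NCI-H661. No DPPA2 or DPPA4 library of NCI-H1299 was analysed here.

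PLXNB2 had 156 and 51 reads in H3K27ac islands at its TSS windows in DOX cells (replicates 1 and 2) and no island there in either control library. Within the PLXNB2 body H3K27ac islands covered 19.9% and 6.12% in DOX cells, against 1.22% and 0.612% in control cells. PLXNB2 was the 1 member gained by the rule of a call in DOX and no island in either control library, which 4.57% of all genes met. PLXNA1 had 181 and 49 reads in DOX cells, against no island and 30 reads in control cells. PLXND1 had 133 and 15 reads in DOX cells, against 10 reads and no island in control cells. For comparing both DOX with both control values, here and below, a library without an island was counted as 0. In these 3 genes both DOX values then lay above both control values, as they did at 29.0% of all genes. Both DOX values lay below both control values at 0.135% of all genes. H3K27ac islands held 2777360 reads in DOX replicate 1 and 979366 in DOX replicate 2, against 774886 and 759619 in the control libraries. After scaling to each library's reads in islands, PLXNA1, PLXNB2 and PLXND1 still had both DOX values above both control values, as did 13.5% of all genes. At PLXND1 the scaled reads were 47.9 and 15.3 in DOX cells, against 12.9 and no island in control cells. By within-library percentile of reads per kb of TSS windows, PLXND1 stood at 46.9 and 45.8 in DOX and 53.6 in control replicate 1. PLXNA1 and PLXNB2 kept both DOX values above both control values by that rank. The control ranks of PLXNB2 (26.6 and 25.5) are those shared by genes without an island. With the reads scaled to reads in islands, 13.2% of all genes, and no plexin, had both DOX values below both control values. The excess of higher genes was thus not present after scaling. Dividing by the total also removes a rise shared by all genes, so a general rise and a difference in depth cannot be told apart. With DOX replicate 1 as the only DOX library, 6 members would be called (62.7% of all genes). With DOX replicate 2 as the only one, 3 would be (55.1% of all genes). PLXNB1, PLXNA3 and PLXNC1 had islands of 61, 20 and 12 reads at their TSS windows in DOX replicate 1 alone, and PLXNB3, PLXNA2 and PLXNA4 had none in any of the 4 libraries. No member could lose a call, because none was called in control cells, and 0.0749% of all genes lost one.

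**Figure D5:**
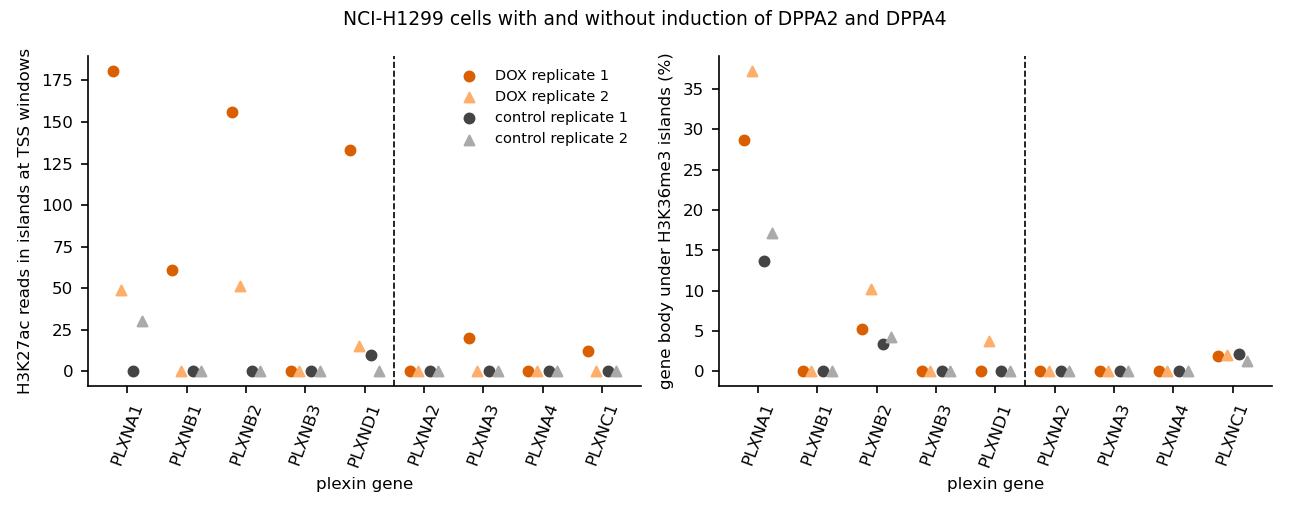
Left, reads in H3K27ac islands at the TSS windows of each plexin in NCI-H1299; right, percentage of the gene body under H3K36me3 islands. Each point is 1 library, DOX to the left and control to the right within each gene, and 0 means that no island was listed. PLXNA1, PLXNB2 and PLXND1 have both DOX points above both control points on the left, and PLXNA1 has the widest H3K36me3 cover on the right.

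H3K4me1 was called at the same 3 members in DOX (PLXNA1, PLXNB2 and PLXND1; 49.9% of all genes) and in control cells (43.9% of all genes). At the TSS windows PLXNA1 had 66 and 63 reads in DOX cells, against 36 and 28 in control cells, and PLXND1 had 56 and 48 in DOX cells, against 33 and 45 in control cells. PLXNB2 had 158 and 173 reads in DOX cells, against 68 and 208 in control cells, so its groups overlapped. Both DOX values lay above both control values at 2 members (PLXNA1 and PLXND1) and at 16.0% of all genes. After scaling to reads in islands this held for 1 member, PLXNA1, and for 11.7% of all genes. Over the gene body, H3K4me1 islands covered 14.8% and 10.1% of PLXND1 in DOX cells, against 1.36% and 2.72% in control cells. PLXNC1 was the other member with higher body cover in both DOX libraries (0.566% and 0.754%, against none), and 17.6% of all genes met that rule.

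H3K36me3 was called at 1 member, PLXNA1, in DOX (33.2% of all genes) and in control cells (30.0% of all genes). Its islands covered 28.7% and 37.3% of the PLXNA1 body in DOX cells, against 13.7% and 17.2% in control cells. PLXNB2 had 5.20% and 10.2% in DOX cells, against 3.37% and 4.29% in control cells. Both DOX values were above both control values at these 2 members and at 25.7% of all genes, and below them at 2.13% of all genes. H3K36me3 islands held 3657645 and 3531946 reads in DOX cells, against 2681872 and 2773158 in control cells, and the part of this difference in the cover was not tested. After scaling to reads in islands, the PLXNA1 TSS windows had 29.8 and 27.5 reads per 1e+06 in DOX cells, against 20.1 and 21.3 in control cells, and 9.03% of all genes had both DOX values higher.

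H2AK119ub was called at 3 members in DOX (PLXNB1, PLXNB2 and PLXND1; 14.9% of all genes) and at 1 in control cells (PLXNC1; 12.2% of all genes). PLXNB1 had 13 and 60 reads at its TSS windows in DOX cells, against no island and 12 reads in control cells. PLXNB2 had 40 and 32 reads in DOX cells, against 14 and 14 in control cells, where the islands lay at different start sites in the 2 libraries. Both DOX values were above both control values at these 2 members and at 5.90% of all genes. PLXND1 had 138 and 65 reads in DOX cells, against no island and 131 reads in control cells, so its groups overlapped. PLXNC1 had 55 reads and no island in DOX cells, against 35 and 23 reads in control cells. No member met the rule for a gained or lost H2AK119ub call, which 2.04% and 1.87% of all genes met. H3K9me3 was called at no member in DOX (0.819% of all genes) or control cells (0.824% of all genes).

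The size of change was tested at 1 plexin region, the only one left by the coverage filter. Reads were joined over the islands of the 4 libraries of a mark and tested with edgeR's quasi-likelihood test, leaving out regions filled by islands for less than 50% of their length in any of the 4 libraries. The H3K4me1 region upstream of the canonical PLXNB2 TSS (chromosome 22, 50307801 to 50309800) had 49 and 57 reads in DOX cells, against 30 and 62 in control cells. Its log2 change, DOX over control, was 0.13 ± 0.28 (standard error, n = 2 per group; edgeR adjusted p = 0.948), smaller than its error. Genome-wide, 2 of 7095 H3K4me1 regions (0.0282%) and 15 of 7146 H3K36me3 regions (0.210%) were called in either direction, the H3K36me3 regions 12 higher and 3 lower in DOX. No region was called for H3K27ac (0%, 3436 tested), H2AK119ub (0%, 132 tested) or H3K9me3 (0%, 68 tested) by edgeR, where 188, 5 and 5 regions had an unadjusted p below 0.05, nor by DESeq2. The filter removes any region that lacks an island in 1 library, such as the PLXNB2 TSS for H3K27ac, so it leaves out regions gained or lost outright. With islands in all 4 libraries but no coverage minimum, 12 of 10307 H3K27ac regions were called, all 12 higher in DOX. On that wider set 10 plexin regions could be fitted, 0 of them for H3K27ac, and 0 were called. Among them 2 PLXNA1 H3K36me3 regions had the largest changes. In the library with least cover, islands filled 9.59% of the region at 127020201 and 13.3% of that at 127004101. Reads outside islands were not counted. The region at 127020201 to 127027500 had 123 and 126 reads in DOX cells, against 13 and 83 in control cells, a log2 change of 1.43 ± 0.46 (edgeR adjusted p = 0.148). The region at 127004101 to 127007100 had 44 and 55 reads in DOX cells, against 16 and 11 in control cells, a log2 change of 1.55 ± 0.69 (edgeR adjusted p = 0.53).

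The rest of the pathway was read from lists of ligands, partners and effectors. Of 20 semaphorins, 10 had a DPPA2/4 consensus peak at a TSS in NCI-H661, beside 29.5% of all genes. The first 8 by name were SEMA3B, SEMA3D, SEMA3F, SEMA3G, SEMA4B, SEMA4C, SEMA4F and SEMA6B. The SEMA3B peak was enriched 35.8- and 14.2-fold for DPPA2 and 11.2- and 14.3-fold for DPPA4 (percentile 97.8). The SEMA6B peak was close to it at percentile 97.6, with DPPA2 enriched 29.0- and 14.5-fold. SEMA4C, a PLXNB2 ligand, was enriched 11.1- and 7.90-fold for DPPA2 and 10.3- and 11.3-fold for DPPA4. Of 7 co-receptors and receptor partners, L1CAM and NRP2 had a consensus peak. NRP2, a neuropilin co-receptor of class A plexins, was enriched 13.8- and 9.78-fold for DPPA2 and 9.95- and 7.46-fold for DPPA4. Of 27 genes that signal inside the cell, 16 had one, among them CDK5, CRMP1, DPYSL2, DPYSL4, DPYSL5, FARP1, FES and FYN. H3K27ac in NCI-H661 was called at 14 of the 20 semaphorins, 4 of the 7 partners and 23 of the 27 intracellular genes, beside 61.3% of all genes. SUZ12 peaks lay at 6 semaphorins, 4 partners and 7 intracellular genes, beside 17.3% of all genes. In NCI-H1299 H3K27ac was called at 8 semaphorins in DOX cells, against 4 in control cells, at 3 partners (ERBB2, MET and NRP1), against 0, and at 22 intracellular genes, against 16. Over all genes the shares were 54.1% in DOX cells, against 41.4% in control cells. The rule for a gained call, met by 4.57% of all genes, was met by SEMA4F, SEMA6A, NRP1 and DPYSL3, which are named for it after their values were seen. No tested region of these lists was called in DOX against control. The regions tested for H3K27ac were 1 of semaphorins, 0 of partners and 7 of intracellular genes. For H3K4me1 they were 10, 3 and 15, and for H3K36me3 7, 2 and 13. None was tested for H2AK119ub or H3K9me3. Over all regions 0%, 0.0282% and 0.210% were called for H3K27ac, H3K4me1 and H3K36me3. The coverage filter leaves out regions gained outright.

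Genes whose TSS signal ran most like that of each bound plexin were found by the correlation of within-library percentile ranks over the 38 libraries with islands, which differ in depth and target. They were TBC1D9B for PLXNA1 (Pearson r = 0.73), STUM for PLXNB1 (0.87), LAMA5 for PLXNB2 (0.86), TAS1R3 for PLXNB3 (0.99) and KCNC4 for PLXND1 (0.87). Genes without an island share a rank in each library, and PLXNB3 had none at a TSS in any NCI-H1299 library.

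The libraries differed widely in depth. Reads in listed islands ranged between 488201 and 6961886 in NCI-H661 and between 137991 and 3657645 in NCI-H1299, and total depth is not given in the files. H3K27ac in NCI-H661 was called at 4 of 7 epithelial markers (CLDN4, EPCAM, KRT18 and KRT8), 2 of 4 mesenchymal (VIM and ZEB1), 1 of 5 lung (NKX2-1), 1 of 4 endothelial (PECAM1) and 1 of 3 neuronal markers (SYT1). In NCI-H1299 it was called at 3 epithelial, 3 mesenchymal and 2 neuronal markers in DOX cells, against 2, 2 and 0 in control cells, and at none of the lung or endothelial markers in either. The other 4 lung markers were called in neither line. Over all genes H3K27ac was called at 61.3% in NCI-H661, 54.1% in DOX cells and 41.4% in control cells.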

How the data were processed

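Chromatin libraries were processed by the authors on hg38 (GRCh38.p13); the submitters' processing notes name BWA 0.7.13, Picard 2.6.0, Trim Galore 0.6.6, deepTools 3.5.0 and SAMtools 1.9. The deposited EPIC2 lists give read counts per island in the library and its input, their log2 fold over input, p-values with false discovery rates, and a score. The deposited MACS2 lists give a fold over input, −log10 p and q values and a score. Of the 2491508 intervals kept after the fold and false discovery rate limits on standard chromosomes, 0 ran past a chromosome end of the hg38 sequence used here. The plexin family, the pathway lists and the rules were chosen with earlier results of these data known. TSSs came from GENCODE release 44. All 9 members were named. Pathway genes were named when bound (up to 8 by alphabet) or called in DOX. The nearest likeness of each bound member was the gene with the highest Pearson r. Island counts of joined regions were tested with edgeR 4.0.16 (TMM, quasi-likelihood, replicate number as block after the study's model, Benjamini-Hochberg; called at adjusted p below 0.05 and absolute log2 of at least 0.5), which was tested on simulated data. DESeq2 1.42.0 was the alternative, and for H3K9me3 it used the mean dispersion because no trend could be fitted. Same-numbered H3K27ac libraries deviated together (r = 0.26); in the other 4 marks r was 0.04 to 0.09. With 2 libraries per group, no exact permutation test could reach 0.05. The inputs were not analysed on their own. One further marker list is not reported here.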

Additional observations from a re-analysis of the deposited data

How the results depend on the processing

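Of 96 alternatives to the counts of plexins called, 72 left the count within 1.5 times and 24 did not. With EPIC2 islands in place of MACS2 peaks, 8 members had a DPPA2/4 consensus peak, as did 51.0% of all genes. Within 500 bp of a TSS, 5 members kept H3K4me1 in NCI-H661 (21.6% of all genes). In NCI-H1299 control cells 0 kept H2AK119ub (6.74% of all genes) and 0 kept H3K36me3 (22.3%). At a log2 fold over input above 2, 1 member kept H3K9me3 in NCI-H661, 1 kept H3K4me1 in control and 0 kept H3K36me3 in control cells. With the canonical TSS only, the count was 0 for H3K36me3 in NCI-H661 (7.17% of all genes), DOX (9.52%) and control cells (7.37%). The count was also 0 for H3K9me3 in NCI-H661 (4.14%). Leaving out 1 replicate gave 4 members for H3K36me2 in NCI-H661 without replicate 1 (30.5% of all genes) and 1 without replicate 2 (15.8%). In DOX cells it gave, for H3K27ac, 3 members without replicate 1 (55.1% of all genes) and 6 without replicate 2 (62.7%). In the same order it gave 4 (27.4%) and 5 (24.4%) for H2AK119ub and 3 (38.3%) and 2 (38.8%) for H3K36me3. In control cells it gave 1 for H3K27ac, PLXNA1 without replicate 1 (49.0% of all genes) and PLXND1 without replicate 2 (46.9%). In the same order it gave 5 (33.7%) and 3 (19.6%) for H2AK119ub and 2 (36.5%) and 2 (35.2%) for H3K36me3. For H3K9me3 it gave 1 (5.58%) and 0 (1.89%). These changes follow in part from asking for a call in 1 library in place of 2; other causes were not tested.

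In 34 of 45 alternatives no plexin region was left to test in DOX against control, and in the other 11, of which 9 were for H3K4me1, none was called. The log2 change of the PLXNB2 H3K4me1 region ran from -0.18 without control replicate 1 to 0.52 without control replicate 2. Counts over all regions were unstable, and 22 of 45 alternatives moved them by over 1.5 times. Without the coverage minimum, 12 regions were called for H3K27ac (all 12 higher in DOX), 7 for H3K4me1, 183 for H3K36me3 and 1 for H3K9me3. DESeq2 called 0 for H3K4me1 and 0 for H3K36me3, and edgeR without normalization factors called 7 for H3K4me1. With reads per covered length, 1 was called for H2AK119ub, 0 for H3K4me1 and 1 for H3K36me3 (0 higher and 1 lower in DOX, against 12 and 3 in the reported fit). That scaling moved the median log2 change of all regions to -0.26 for H3K27ac and -0.14 for H3K36me3. Without the replicate block, 0 H3K4me1 and 3 H3K36me3 regions were called, and the 1 plexin region tested was called neither with nor without it. Leaving out 1 library gave 0 to 9 regions for H3K27ac (9 without DOX replicate 2, all 9 lower in DOX), 0 to 21 for H3K4me1, 0 to 50 for H3K36me3 and 0 to 2 for H3K9me3, where the lone library of an arm is assumed to vary like the others. The highest counts for these last 3 marks came without control replicate 1.

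Island reads at the plexins in NCI-H1299 numbered 8 to 208 per library where an island was listed, and places without an island have no count, so small changes were not detectable at this depth.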
